A study of Mus musculus with 4 samples.

Results

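The regions described here are IGF2BP3 eCLIP-seq read clusters that lie over genes of small structured RNAs in the mouse genome build mm10. A cluster was taken when it shared 1 base or more, on its own strand, with a gene that the GENCODE M21 basic annotation types as snRNA, snoRNA, scaRNA, misc_RNA, ribozyme or miRNA. This gave 1073 of the 337,234 clusters of replicate 1 (0.318%) and 894 of the 216,354 clusters of replicate 2 (0.413%). They lay over 601 and 523 gene annotations, 450 of them covered in both replicates, out of 5727 annotated genes of the 6 types. The mice were 8-week-old wild type C57BL/6 males, and the testes, with their germ cells and somatic cells together, were crosslinked with ultraviolet light, 2 testes in a preparation by the protocol. Each of 2 replicates paired 1 library immunoprecipitated with an IGF2BP3 antibody (IP) with 1 size-matched input library made without an antibody (SMInput), and the number of mice behind a replicate is not given. The design text of the series names an IgG antibody and 3 biological replicates, while the samples are 2 replicates of IP and SMInput and include no IgG. For each cluster the authors deposited a log2(fold change) of IP over SMInput reads, each scaled to its library, and the −log10 of its P value. The totals behind the scaling, worked out from the listed values, were 5,133,438 IP and 8,706,391 SMInput reads in replicate 1, and 4,637,612 and 16,696,122 in replicate 2.

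Small structured RNAs act mostly as the RNA cores of stable ribonucleoproteins. Spliceosomal snRNAs remove introns, C/D and H/ACA box snoRNAs guide methylation and pseudouridylation of ribosomal RNA, scaRNAs do the same for snRNAs in Cajal bodies, and 7SK, 7SL, RNase P, RNase MRP, Y and vault RNAs have their own particles. IGF2BP3 belongs to a family of cytoplasmic proteins with RNA recognition motifs and KH domains that is known for binding messenger RNAs and is found in germ cells.

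A log2(fold change) of 0 means that a cluster held the same share of its IP and of its SMInput library. The median over the small RNA clusters was −0.16 in replicate 1, with quartiles of −1.16 and 0.76, where the median of all clusters was 1.50. In replicate 2 it was −0.33, with quartiles of −1.14 and 0.65, beside 1.53 for all clusters. With the deepest cluster of each gene alone, a choice made after seeing the data, the medians were 0.012 and −0.18. Small RNA clusters were thus lower than the bulk of the clusters in both replicates and spread to both sides of 0. Clusters with a ratio at or below 0 are listed at a −log10(P value) of 0, and so are some on few reads with a ratio just above it, up to 0.18 and 0.11, among them 7 and 2 small RNA clusters. The value of 0 was given to 597 small RNA clusters of replicate 1 (55.6%) and 525 of replicate 2 (58.7%), against 10.6% and 7.52% of all clusters. At the other end, 2 and 10 small RNA clusters carried the highest listed −log10(P value), 400.

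The study's methods set the call at 2 or more for both the log2(fold change) and the −log10(P value). In replicate 1, 33 small RNA clusters were called, or 3.08% (95% Wilson interval 2.20% to 4.29%), where 4.92% of all clusters were called. In replicate 2, 31 were called, or 3.47% (2.45% to 4.88%), where 13.2% of all clusters were. The share called among small RNA clusters was therefore about alike in the 2 replicates, while that of all clusters was not. Clusters are not replicates, neighbouring clusters of 1 RNA can count the same reads, and the intervals cover counting error only. The called clusters lay over 24 and 29 genes, and 5 genes had a called cluster in both replicates, 20.8% of the first list and 17.2% of the second. By position, 6 of the 33 called clusters (18.2%) and 5 of the 31 (16.1%) overlapped a called cluster of the other replicate, where 33.0% and 18.5% of all called clusters did. Many calls rested on few reads, with 7 of the 33 and 16 of the 31 on fewer than 10 IP reads.

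Small RNA clusters were narrow and deep. Their median width was 29 bases in replicate 1 and 31 in replicate 2, beside 42 and 47 for all clusters, and their median depth was 93 and 144.5 reads (IP plus SMInput) beside 7 and 11. For clusters listed at a −log10(P value) of 0 or 400 only the ratio is informative, and the smallest whole read numbers that give it were taken. The true reads are these or a multiple of them, and for clusters at 400 the listed P value needs more than some of these numbers give, so the depths are lower limits. Of the clusters with 1000 or more reads, 135 of 252 in replicate 1 (53.6%) and 171 of 316 in replicate 2 (54.1%) lay over small RNA genes. In this deepest class the small RNA clusters had medians of −0.99 and −0.96, and the other clusters 0.26 and 0.45. At 100 to under 1000 reads, the small RNA clusters had medians of −0.59 and −0.54, and the others 1.18 and 1.04. At 20 to under 100 reads, the medians were 0.16 and 0.02 against 0.84 and 0.89. Under 20 reads they were 0.76 and 1.11 against 1.76 and 1.85, so the small RNA clusters had the lower median in each of the 4 classes and in both replicates. Clusters listed at 0 can stand in a class below their true depth. Under 20 reads, such clusters were 36.0% and 29.9% of the small RNA clusters, against 9.77% and 5.34% of the others. The classes are therefore not matched for true depth. In this shallowest class, the share called was higher over small RNAs in replicate 1 and near that of the others in replicate 2. In replicate 1, 6.69% of its small RNA clusters were called (Wilson interval 4.16% to 10.6%), against 3.37% of the others. In replicate 2, 14.2% were called (9.16% to 21.3%), and the 12.9% of the others lay inside that interval. In the deeper classes the share called was lower over small RNAs, in both replicates.

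The label of the regions was checked against their positions. In replicate 1, 1010 clusters (94.1%) had at least 50% of their bases inside the small RNA gene, and in replicate 2, 867 (97.0%) did. The exceptions gathered at miRNA genes, where 81 of 128 and 68 of 88 clusters did. An exon of a protein-coding or long non-coding gene on the same strand was also overlapped by 149 and 126 of the clusters, and the files do not tell reads of the small and the longer RNA apart. Introns of protein-coding genes held 537 and 445 of the small RNA clusters, with medians of −0.26 and −0.34, while other clusters in such introns had medians of 2.08 and 1.85. In exons of protein-coding genes, the 88 and 69 small RNA clusters had medians of 0.66 and 0.92, closest to the 1.08 and 1.17 of other clusters there. Where no other gene lay on the strand, the 307 and 268 small RNA clusters had medians of −0.18 and −0.34.

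The ratios of a site in the 2 replicates were compared on pairs of clusters, 1 from each replicate, that were each other's best overlap. There were 675 small RNA pairs, which used 62.9% of the small RNA clusters in replicate 1 and 75.5% in replicate 2. Between the replicates, their log2(fold change) correlated across pairs (Pearson's r 0.89, Spearman's rho 0.88), and 588 pairs (87.1%) had the same sign. Over all 74,632 pairs, r was 0.62 and 82.6% had the same sign. These are descriptions across sites, which share libraries and genes and are not independent. In limma, fitted on all pairs with the spread between the replicates as the error, 286 small RNA pairs were lower in the IP at an adjusted p under 0.05, 42.4% of the 675, beside 1.05% of all pairs. Higher in the IP were 137, or 20.3%, beside 47.6% of all pairs. Small RNA pairs were 0.904% of all pairs and made up 36.5% of the pairs lower in the IP. Without the trend of the spread on reads, 73 were higher (10.8%, beside 47.2% of all pairs). In that fit 200 were lower (29.6%, beside 0.711% of all pairs). All pairs together did not sit at 0 but at medians of 0.88 in replicate 1 and 1.08 in replicate 2. When each replicate was centred on that median, 12.8% of all pairs were higher and 9.09% lower, and the share of the lower pairs that lay over small RNAs was 6.73%. In that fit 24 small RNA pairs (3.56%) were higher and 457 (67.7%) lower, so that the higher ones went from 32.4% to 4.99% of those past the threshold. A fit without pairing each IP with its SMInput needs the reads themselves. They are known in both replicates for 206 of the small RNA pairs, all above 0 in both. Such pairs were fitted alone, a choice made after seeing the data. Without pairing, limma found 112 of the 206 higher (54.4%, beside 59.7% of all such pairs). The fit with pairing had 132 (64.1%, beside 63.9%). Only pairs above 0 in both replicates have known reads, so neither count tests whether they are higher. Each of the 286 lower pairs had a cluster listed at 0, so this fit does not reach them. Directions given below are relative to the library totals, unless centring is named.

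Among the snRNAs of the major spliceosome, U1, U4 and U5 stood far below 0, U2 nearer to it and U6 above it. U1, which recognises the start of the intron, had 99 clusters with a median of −1.45 in replicate 1 and 85 with a median of −1.81 in replicate 2, and none was called. Of the 67 U1 pairs, 59 were lower in the IP by limma, and after centring 65 were. None was higher in either fit, with a count of 0 also at an unadjusted p under 0.05. U4 and U5 stood lower still. The U4 clusters had medians of −2.85 and −3.06, the U5 clusters −2.96 and −2.97, and all 9 U4 pairs and all 14 U5 pairs were lower in the IP by limma, with and without centring. U2, which pairs with the branch point, was nearer to 0, at medians of −0.13 and −0.53, with 16 pairs lower, 4 higher and 13 neither by limma. After centring, 28 were lower and 1 was higher. The 4 higher pairs had known reads, and 2 of them were higher by limma without pairing. That fit took only pairs above 0 and does not test this. For U2, U4 and U5, these are clusters over 15, 5 and 7 annotated copies in replicate 1, and the files do not say how reads that fit several near-identical copies were placed.

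The deepest small RNA gene of the data was a U1 copy, Gm22513, at chr12:54696782-54696945, whose deepest clusters held together at least 150,328 reads over the replicates. Its 3 clusters in replicate 1 lay between −2.36 and −2.23, and its 5 clusters in replicate 2 between −2.15 and −1.99, so its ratio hardly changed over bases 25 to 97 of its 164, where these clusters lay. Its 3 pairs were lower in the IP by limma. Its deepest cluster of replicate 1, at bases 38 to 71, held at least 7118 IP and 62,047 SMInput reads. Gm24046, another U1 copy on chromosome 3, stood higher, at −1.36 and −0.97 in its deepest clusters. Gm24305 and Gm22220, U1 copies on chromosome 12, had −2.41 and −2.44 in replicate 1 and −2.40 and −1.89 in replicate 2. The U4 copies Gm24265 and Gm24407, side by side on chromosome 5, had −2.84 and −3.31 in replicate 1 and −2.94 and −3.07 in replicate 2. Rnu5g, a U5 gene, had 4 clusters between −2.97 and −2.75 in replicate 1 and 3 between −2.89 and −2.87 in replicate 2. Gm22973, a U2 copy, had −0.38 and −0.45 in its deepest clusters. In both replicates, the U4 and U5 genes were the lowest of these deep RNAs, the U1 copies came next and the U2 copy stood nearest to 0.

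The sequence of the U4 copy Gm24407 is given because it was the lowest of the deepest genes, with the part under its deepest cluster of replicate 1 in capitals. It is read from GRCm38 at chr5:115490254-115490394, plus strand.
Gm24407: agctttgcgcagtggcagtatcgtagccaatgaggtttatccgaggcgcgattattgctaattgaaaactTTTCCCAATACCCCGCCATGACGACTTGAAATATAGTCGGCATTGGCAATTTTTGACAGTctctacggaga
The pairs of clusters along this RNA had mean log2(fold change) values from −3.39 at bases 131 to 135 to −3.03 at bases 69 to 70. The 4 pairs together covered bases 69 to 138, and the bases before them carried no cluster pair.

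U6 is the snRNA at the catalytic core of the spliceosome. Its 124 clusters in replicate 1 had a median of 0.76 and its 102 clusters in replicate 2 a median of 0.85, below the medians of all clusters. Of 71 U6 pairs, 27 were higher in the IP by limma (38.0%, beside 47.6% of all pairs), 4 lower and 40 neither. After centring, 4 were higher and 21 lower. Copies at least 90% identical to Gm22638, the deepest one, had medians of 0.76 and 0.47, and less similar copies 0.76 and 1.04, counted by the deepest cluster of each gene. U6 has 961 annotated copies, of which 97 and 76 had a cluster, mostly at low depth, with medians of 23 and 36.5 reads. In replicate 2, 4 U6 clusters, all over Gm22638, carried the highest listed −log10(P value), with ratios from 1.44 to 1.64. The gene named Rnu6 had 1 cluster, in replicate 1 only, at 0.76 on 7 IP and 7 SMInput reads. U6atac, which takes the place of U6 in the minor spliceosome, had 3 clusters with a median of 1.54 and 4 with a median of 1.19. All 3 of its pairs lay over Gm25541 and were higher in the IP by limma, and 1 was after centring. In the fit without pairing, 2 were, but it took only pairs above 0 and does not test this.

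Rnu12 and Rnu11 of the minor spliceosome and the histone RNA Rnu7 stood below 0. Rnu12, which pairs with the branch point of minor introns, had 4 clusters between −2.09 and −1.32 in replicate 1, lowest at bases 117 to 142, and 4 between −1.27 and −1.06 in replicate 2, where no cluster covered those bases. Rnu11 had 4 clusters in each replicate, between −0.83 and −0.54 and between −0.68 and −0.61. Rnu7, which guides the processing of histone messenger RNA ends, had 1 cluster in each replicate, at −0.80 and −1.19, and its pair was lower in the IP (limma, mean −0.995, SE 0.23, adjusted p = 6.96e-05, below 0 in both replicates). Rnu1a1, a U1 gene in an intron of Tex14, was unlike the deep U1 copies, with 0.67 and 0.76 in replicate 1 and 0.19 and 0.21 in replicate 2. Its pair missed the threshold (limma, mean 0.48, 95% interval −0.04 to 0.998).

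7SK holds the elongation factor P-TEFb inactive in the nucleus. Rn7sk carried 12 clusters in replicate 1, at bases 226 to 326 of its 331 bases, with values from −0.54 to −0.48. In replicate 2 it carried 14, at bases 216 to 326, with values from −0.51 to −0.15. The value of −0.15 was that of bases 216 to 224, and the other 13 clusters lay between −0.51 and −0.39. Each of the 10 pairs was lower in the IP by limma. The annotated relatives with clusters had less than 90% identity to it and medians of 0.38 over 22 genes and 0.26 over 17 genes. With those relatives, the 36 pairs of the family were 6 higher, 12 lower and 18 neither, and after centring 0 were higher, also at an unadjusted p under 0.05, and 22 lower. 7SL is the RNA of the signal recognition particle. Rn7s2 had clusters in replicate 1 only, at −1.17 over bases 83 to 103 and at 1.90 over bases 262 to 288, and Rn7s6 had −1.16 and −0.32 on few reads. Of the 5 pairs of 7SL genes, 4 were lower in the IP by limma and 0 higher, also at an unadjusted p under 0.05.

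RNase MRP and RNase P are related RNA enzymes, the first for ribosomal RNA precursors and the second for tRNA precursors. Both changed along their length in a way that the replicates shared. Rmrp carried 13 clusters in each replicate. From its 5′ end, the values rose from −1.42 at bases 53 to 55 through −0.99 at bases 91 to 101 and −0.61 at bases 115 to 125 in replicate 1. They were 0.19, 0.11 and 0.14 in the 3 clusters over bases 133 to 190, and −0.39 at bases 211 to 215. Replicate 2 gave −1.32 at bases 53 to 55, −0.58 at bases 115 to 125 and 0.16, 0.10 and 0.06 over bases 133 to 190. The 3 middle clusters were thus the ones above 0 in each replicate. By limma, the 6 pairs up to base 125 were lower in the IP, and the 5 after it were neither, with means from −0.26 to 0.17.
The sequence of Rmrp is given with the stretch above 0 in capitals, from GRCm38 at chr4:43492788-43493058, minus strand.
Rmrp: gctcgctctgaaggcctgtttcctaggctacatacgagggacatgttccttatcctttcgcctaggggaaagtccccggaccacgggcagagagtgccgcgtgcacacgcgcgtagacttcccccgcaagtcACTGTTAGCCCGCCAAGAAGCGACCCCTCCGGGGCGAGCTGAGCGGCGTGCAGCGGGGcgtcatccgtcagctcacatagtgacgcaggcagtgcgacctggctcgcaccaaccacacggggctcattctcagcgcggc
After centring, all 11 Rmrp pairs were lower, so the stretch in capitals is higher than the other parts under clusters without being high among all clusters.

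Rpph1, the RNase P RNA, stayed below 0 in all its clusters and had a similar shape. In replicate 1 its 10 clusters ran from −1.72 at bases 54 to 76 to −0.46 at bases 162 to 166 and back to −1.09 at bases 211 to 220. In replicate 2 its 7 clusters ran from −1.84 at bases 48 to 50 to −0.47 at bases 156 to 159 and −0.72 at bases 170 to 203. The least negative value thus lay between bases 156 and 166 in both. All 6 pairs were lower in the IP by limma, with means from −1.74 to −0.46. The RNase P gene lies inside an intron of Ccnb1ip1 in the annotation, and Rmrp inside a long non-coding gene of the same name.

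C/D box snoRNAs guide the methylation of ribose in ribosomal RNA and had the most clusters of the families. Their 236 clusters in replicate 1 had a median of −0.37, and their 192 clusters in replicate 2 a median of −0.41. Of 161 pairs, 31 were higher in the IP by limma (19.3%, beside 47.6% of all pairs), 68 lower (42.2%, beside 1.05% of all pairs) and 62 neither. The family spanned almost the whole range of the small RNA pairs, with pair means from −4.05 to 3.08. H/ACA box snoRNAs, which guide pseudouridylation, had medians of −0.51 and −0.63 over 214 and 175 clusters. Of their 142 pairs, 19 were higher (13.4%), 68 lower (47.9%) and 55 neither, within a narrower range of means, from −2.80 to 1.67. Cajal body RNAs had medians of −0.44 and 0.03 over 35 clusters in each replicate, and 5 pairs that were higher (20.8%), 10 lower (41.7%) and 9 neither. After centring, 5 C/D pairs, 0 H/ACA pairs and 0 Cajal body pairs were higher by limma (6, 1 and 0 at an unadjusted p under 0.05), and 114, 110 and 16 were lower, where 12.8% of all pairs were higher and 9.09% lower. By gene symbol alone, the Snord clusters typed as snoRNA had medians of −0.69 and −0.64 and the Snora clusters −0.41 and −1.02.

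Snora73a and Snora73b, the U17 snoRNAs that act in the processing of small subunit ribosomal RNA, were among the lowest H/ACA RNAs. Snora73a had −2.42 and −3.26 in replicate 1 and −2.45 and −3.36 in replicate 2, the lower value each time nearer the 3′ end. Snora73b had −2.09 and −2.52 in replicate 1 and −2.41 to −1.77 in replicate 2. Snord13, which helps to acetylate small subunit ribosomal RNA, had 6 clusters from −1.19 to −0.90 and 5 from −1.11 to −0.94, and its 5 pairs were lower in the IP by limma. Snord118, the U8 snoRNA of large subunit processing, differed from these. Its 5 clusters in replicate 1 lay between 0.41 and 0.64, and its 4 clusters in replicate 2 between 0.48 and 0.66. All 3 of its pairs were higher in the IP by limma, with means of 0.52 (SE 0.16, adjusted p = 0.0053), 0.45 (SE 0.16, adjusted p = 0.0131) and 0.62 (SE 0.17, adjusted p = 0.000815), above 0 in both replicates. After centring, the means were −0.46, −0.52 and −0.35.

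U3, the snoRNA of the small subunit processome, was the snoRNA group with the highest ratios. Its 20 and 18 clusters had medians of 1.03 and 0.47, and of 15 pairs 7 were higher in the IP by limma (46.7%, beside 47.6% of all pairs), 0 lower, also at an unadjusted p under 0.05, and 8 neither. After centring, 3 were higher and 6 lower. Rnu3a, on 956 IP reads or more in its first cluster of replicate 1, rose towards its 3′ end in both replicates. In replicate 1, it went from −0.22 at bases 131 to 158 to −0.03 at bases 172 to 188, 0.15 at bases 189 to 202 and 0.52 at bases 203 to 206. In replicate 2, it went from −0.10 at bases 131 to 134 to 0.22 at bases 173 to 189, 0.37 at bases 190 to 203 and 0.74 at bases 204 to 206. Of its pairs, the last one passed the threshold (limma, mean 0.63, SE 0.16, adjusted p = 0.000373), and after centring its mean was −0.35. Of 10 other U3 annotations with clusters in each replicate, 9 and 6 were above 0 in their deepest cluster, the lowest at −0.65 and −1.11. In each replicate, 5 of them lie in introns of Tex14, a gene of germ cell bridges, and were above 0 at lower depth than Rnu3a. Of these, Rnu3b4 had 4 called clusters in replicate 1, from 2.07 to 2.11, the highest on 208 IP and 82 SMInput reads, and 1.60 and 1.58 on 69 and 68 IP reads in replicate 2. Rnu3b1 had 1.46 on 13 IP and 8 SMInput reads in replicate 1, and 4.17 on 5 and 1 reads and 1.95 on 15 and 14 reads in replicate 2.

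Small RNAs of 1 host gene were compared with each other. In each of 10 host genes, at least 4 small RNA annotations had clusters in both replicates, 48 in all, taken by their deepest cluster. These hosts were chosen after the values were seen, by that number of annotations alone. In 6 of the 10, at least 1 small RNA was above 0 in both replicates and another below 0 in both. In Rpl4, a ribosomal protein gene, Gm23344 had −2.98 and −2.04 in the replicates, and Snord16a, farther along the gene, had 1.42 and 1.63. In Snhg1, a long non-coding host, 5 C/D box snoRNAs were below 0 in both replicates, the lowest being Gm24452 at −1.84 and −2.33. The sixth, Gm24453, had 2.64 and 1.63 on 28 and 13 reads. Gas5 had all 5 of its small RNAs below 0 in both replicates, and Rpl13a all 4. In Tex14, 6 of 7 annotations, 2 of which overlap under the symbol Rnu3b4, were above 0 in both replicates, and Gm22068, a U1 copy, had 0.76 and −0.34.

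Y RNAs form particles with the protein Ro60, and the related protein IGF2BP1 is known to associate with Y3 RNA. Rny3 was the one textbook RNA that reached the highest listed −log10(P value). It had 1.50 and 1.49 in its 2 clusters of replicate 1, both at 400, on at least 511 IP and 306 SMInput reads and at least 1034 and 623. In replicate 2 it had 6 clusters from 1.84 to 2.03, all at 400, of which 2 were called. Both replicates placed them at bases 55 to 94 of the 102 bases. The pairs were higher in the IP (limma, means 1.75 and 1.76, SE 0.17 and 0.20, adjusted p = 2.96e-23 and 1.93e-16), and they were higher after centring too, at 0.77 and 0.79. Rny1, its neighbour on the other strand of chromosome 6, gave no such value, with −0.42 on at least 36 reads in replicate 1 and 0.39 on 438 reads in replicate 2. Its pair had a mean of −0.02 (limma 95% interval −0.54 to 0.51).
The vault RNA gene Vaultrc5 was below 0, at −0.60 and −0.87 in replicate 1 and −0.35 and −0.40 in replicate 2, and 1 of its 2 pairs was lower in the IP by limma.

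Of the 27 textbook RNAs listed for the report, 18 had clusters in both replicates and 2 in 1 replicate. Over the other 7, no cluster was found. They were Rn7s1, Terc, Rnu1b1, Rnu2-10, Rnu4atac, Rnu73 and Snord3a. An RNA without a cluster has no ratio here, and its absence does not give a value.

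The miRNA genes carried 128 clusters in replicate 1 and 88 in replicate 2, with medians of 0.76 and 1.04, and 6 and 13 of them were called, or 4.69% and 14.8%, close to the 4.92% and 13.2% of all clusters. Of 50 pairs, 25 were higher in the IP by limma, a share near the 47.6% of all pairs, 3 lower and 22 neither. After centring, 6 were higher and 13 lower. The files do not tell reads of a precursor, of its host transcript and of a mature miRNA apart. Split by the RefSeq table of mouse miRNAs, 61 and 33 clusters lay over genes listed there, with medians of 1.35 and 1.45. The 67 and 55 clusters over genes not listed had medians of 0.57 and 0.96. An exon of a protein-coding or long non-coding gene was also overlapped by 41 and 26 of the first and by 33 and 27 of the second.

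The called clusters that recurred in both replicates lay over 5 genes, of which 3 overlap exons of longer genes. The highest by the smaller of its 2 best values was Gm27624, a misc_RNA annotation inside an exon of the long non-coding RNA Tug1 on chromosome 11. It had 2.59 on 46 IP and 13 SMInput reads in replicate 1 (95% interval 1.67 to 3.60) and 2.43 on 12 and 8 reads in replicate 2 (1.02 to 3.93). Its cluster in replicate 1 had 22 of 131 bases inside the annotation. Mir7019 in an exon of Pink1 had 3.43 on 19 and 3 reads and 2.26 on 12 and 9 reads, but both clusters touched the gene by 1 base only. Mir7225 in an exon of Pde4dip had 2.22 on 11 and 4 reads and 2.04 on 8 and 7 reads, with all bases inside the gene. With clusters left out that overlap another exon, 2 genes stayed. One of them was Snord90, a C/D box snoRNA in an intron of Rc3h2, which had 2.14 on 26 and 10 reads (1.04 to 3.36) and 2.20 on 23 and 18 reads (1.25 to 3.18). The other, Gm23055, a U6 copy on chromosome 4 with no other gene around it, had 2.58 on 74 and 21 reads (1.86 to 3.35) and 2.04 on 16 and 14 reads (0.91 to 3.19). Their pairs were higher in the IP with means of 2.17 (limma, SE 0.37, adjusted p = 9.68e-08) for Snord90 and 2.31 (limma, SE 0.34, adjusted p = 2.08e-10) for Gm23055.

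The sequence of Snord90 is shown with the bases under the called cluster of replicate 1 in capitals, from GRCm38 at chr2:37400047-37400157, minus strand.
Snord90: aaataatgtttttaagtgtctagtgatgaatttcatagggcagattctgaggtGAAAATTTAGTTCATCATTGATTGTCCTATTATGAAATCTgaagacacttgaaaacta
The cluster of replicate 2 covered bases 55 to 92, nearly the same ones. In Snord90 the box C letters TGATGA start at base 24 and the box D letters CTGA at bases 47 and 92, so the called cluster starts past the first CTGA and reaches into the last. Of 98 annotated Snord genes, 74 (75.5%) hold TGATGA and 98 hold CTGA on the strand of the RNA. The mature miRNAs of the other called genes with a RefSeq entry are given with the seed, bases 2 to 8, in capitals (RefSeq, GRCm38.p6).
mmu-miR-7225-5p: aCGUAGACuguguagaagcc
mmu-miR-7225-3p: cUUCUAGAcagccucugcagca
mmu-miR-7019-5p: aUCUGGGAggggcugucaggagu
mmu-miR-7019-3p: uCACCUUGgccgccucucugcag
These 4 seeds differ from one another. The clusters over Mir7225 covered bases 15 to 47 and 23 to 52 of the 54 bases, and those at Mir7019 only base 69, the end of the 3p arm.

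The pairs with the highest means by limma were shallow. Rnu3b2, a U3 gene in Tex14, led with 3.08 on 5 IP and 1 SMInput reads and 3.85 on 12 and 3 reads (limma, mean 3.47, SE 0.58, adjusted p = 3.08e-08). Gm23345, an snRNA gene of no assigned family, followed with 3.08 on 5 and 1 reads and 3.43 on 6 and 2 reads. Gm22192, a C/D box snoRNA in an intron of Prrc2b, had 3.57 on 7 and 1 reads and 2.59 on 5 and 3 reads. Mir7019 and Gm26384, a miRNA gene on chromosome 17, had means of 2.84 and 2.71. All 5 were higher in both replicates, also after centring, and none had more than 19 IP reads.

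The pairs with the lowest means were deeper. Snord110, in an intron of Nop56, had −3.88 on at least 1 IP and 25 SMInput reads in replicate 1 and −4.21 on at least 5 and 334 reads in replicate 2 (limma, mean −4.05, SE 0.29, adjusted p = 3.8e-42). Gm23238, a U1 copy on chromosome 19, held the next 2 places, with means of −3.85 and −3.71 over neighbouring stretches. Gm26505, a U1 copy in an intron of Tmco5b, had −3.68 and −3.51. Snord100, in an intron of Rps12, had −3.65 and −3.19 on at least 9 IP and 191 SMInput reads and at least 18 and 593. Each of the 5 pairs was below −3 in both replicates.
Snord110 is shown as the lowest of all, with the bases under its deepest cluster of replicate 1 in capitals, from GRCm38 at chr2:130275506-130275573, plus strand.
Snord110: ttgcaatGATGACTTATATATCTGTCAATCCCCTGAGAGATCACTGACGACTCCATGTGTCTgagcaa
Here TGATGA starts at base 7 and CTGA at bases 33, 44 and 61, so the cluster of replicate 1 runs from box C to box D. The paired cluster of replicate 2 covered bases 41 to 46 only.

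Some letters were counted in windows of 100 bases around the cluster centre, on the strand of the RNA. GGAC, a form of the m6A consensus, was in 29.2% of the 675 small RNA windows and in 28.6% of all 74,632 windows. It was in 29.2% of the 137 windows higher in the IP and 26.6% of the 286 lower ones. ACACA was in 8.44% of the small RNA windows and 8.55% of all, and in 11.7% of the higher and 7.34% of the lower windows. The shares over small RNAs were thus close to those over all windows for both. TGATGA, the box C letters, was in 14.7% of small RNA windows and 4.23% of all, and CTGA in 56.7% and 42.0%. The median GC content was 48% over small RNA windows and 49% over all, 46% in the higher and 50.5% in the lower windows. A match gives the presence of letters and not a binding site.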

How the data were processed

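IGF2BP3 eCLIP-seq of testes of 8-week-old mice came as 2 replicates of an IP and its SMInput, 4 libraries. According to their notes and methods, the authors trimmed reads with cutadapt, removed ribosomal reads with Bowtie2, aligned to mm10 with STAR, collapsed duplicates and called clusters. In the deposited tables, the −log10 column holds the authors' test of IP against SMInput reads, listed as 0 for ratios at or below 0 or a P value of 1 and as 400 at most. The deposited log2 values are the authors' ratios of library-scaled reads.

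Read numbers were those that returned both listed values, unique for 99.97% and 99.99% of clusters between 0 and 400, with a Fisher's exact test for an observed or expected number under 5 and otherwise Yates' chi-square, and the method returned the right numbers for every simulated cluster it was tested on in that range. Members were found by overlap with GENCODE M21 genes (Python 3.11.15, pandas 2.3.3, scipy 1.17.1), and 0 clusters ran past a chromosome end. Where several genes were overlapped, the one with most shared bases was taken. Families came from RefSeq products and symbols, otherwise from blastn 2.17.0 (at least 75% identity over 50% of the gene). Intervals of single clusters are exact binomial ones. Reciprocal best pairs of clusters were fitted in R 4.3.3 with limma 3.58.1, testing the mean of the 2 paired log2 ratios against 0, with the prior variance following depth (for clusters at 0 or 400, the smallest read numbers with the listed ratio). The prior took all the weight, so the error is that of pairs of like depth. P-values were adjusted by Benjamini-Hochberg over all 74,632 pairs.

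Members and lists were chosen with earlier results of these data known. Named genes are those called in both replicates, the 10 deepest, the 5 highest and 5 lowest pairs past the limma threshold and 27 textbook RNAs. Gm22638, Gm25541, Gm22068, Rnu3b4 and the genes named by host were chosen after their values were seen. Alternatives covered thresholds, the overlap with the gene, other exons, each replicate, the pairing, the trend, centring, depth and pair overlap. No set test was made.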

Additional observations from a re-analysis of the deposited data

How the results depend on the processing

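Stricter thresholds of 3 left 4 and 3 called clusters and 0 genes called in both replicates; a log2(fold change) of 1 gave 106 and 95 clusters and 35 genes. Adjusted P values left 21 calls in replicate 1, and a minimum of 10 IP reads left 15 in replicate 2. The genes called in both went from 5 to 3 with the centre, or 50% of the bases, inside the gene, and to 2 without other exons. Each replicate alone called 24 to 29 genes. With the deepest cluster of each gene alone, a choice made after seeing the data, replicate 1 had 20 calls, and its median rose from −0.16 to 0.012, reversing its sign, while that of replicate 2 moved to −0.18. Without the replicate block, so that IP and SMInput were not paired, limma found 56 pairs higher and 112 lower, all of them among the 137 and 286 found with pairing. Without the trend on reads, 73 were higher. Centring, which shifts all pairs alike, gave 24 higher and 457 lower, and the medians of U6, U3 and miRNA pairs changed sign, from 0.51, 0.52 and 0.79 to −0.46, −0.45 and −0.19. The deepest pair of each gene, also chosen after seeing the data, gave 90 higher and 172 lower of 438. The other 23 of 46 alternatives stayed within 1.5 times the count, or within the spread between replicates for medians. The unpaired fit on all pairs ran on the smallest read numbers with the listed ratio for clusters at 0 or 400, so it does not test these pairs. On the 206 pairs with reads known in both replicates, a fit added after seeing the data, 112 were higher without pairing and 132 with it. All 206 were above 0 in both replicates, so this fit does not test the loss without pairing, although it counts among the 23. The causes were not tested otherwise.

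With 2 replicates, the error of a pair rests on pairs of like depth. Calls on fewer than 10 IP reads have wide intervals. The files do not say how reads of multi-copy RNAs were assigned. RNAs without a cluster have no value, and ratios relative to library totals do not give bound amounts.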
